A study of Homo sapiens with 6 samples.

Results

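A set of 9 genes of the cellular response to low oxygen was followed in CAL51 cells, an established human triple-negative breast cancer line, with and without knockout of TREX1. They are HIF1A, EPAS1, VEGFA, ADM, NDRG1, BNIP3, EGLN1, EGLN3 and P4HA1, and each was taken by its symbol from the deposited expression table, giving 9 genes of 14788. RNA was selected for poly(A) tails and sequenced in bulk from 2 libraries of TREX1 KO-1, 2 of TREX1 KO-2 and 2 of control, and no label states that any of the 3 groups was kept in low oxygen or treated with a drug. KO-1 and KO-2 carried different guide RNAs against TREX1, brought in with a CRISPR v2 lentivirus. The deposited description speaks of multiple knockout clones, but not of which library came from a clone or a mixed population. The sources used here also do not say whether the control carried a guide, or whether the 2 libraries of a group were separate cultures. The p-values rest on the spread between the 2 libraries of a group, pooled over the 3 groups and drawn towards that of other genes. That spread may therefore be purely technical. TREX1, a DNA exonuclease of the cytosol, was not analysed here, so the knockout was not checked in these libraries.

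Cells sense oxygen through the stability of the alpha subunits of hypoxia-inducible factor (HIF), which HIF1A and EPAS1 encode. Prolyl hydroxylases, among them the products of EGLN1 and EGLN3, use oxygen to mark these subunits, and the VHL ubiquitin ligase then sends them for degradation. When oxygen is short the subunits persist, pair with ARNT, bind short DNA elements near their targets and raise transcription of genes for vessel growth, mitophagy, collagen modification and glucose use. The control acts mainly on the protein, so the transcript levels given here do not measure HIF activity. In tumours the pathway is known for its part in vessel growth and metabolism.

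The DNA element that HIF binds has the core ACGTG or GCGTG, and 4 promoter windows are shown because they belong to the HIF subunit genes, which head the pathway, and to 2 targets, ADM, which was called in KO-1, and BNIP3, which was called in no comparison. Each window runs from 250 bases before to 50 bases after the RefSeq start of the gene (GRCh38.p14), 5′ to 3′ on the strand of the gene, and capitals mark every match to ACGTG or GCGTG on either strand. The windows lie at chr14:61695263-61695562 for HIF1A (plus strand), chr2:46297157-46297456 for EPAS1 (plus), chr11:10304823-10305122 for ADM (plus) and chr10:131981874-131982173 for BNIP3 (minus).
HIF1A: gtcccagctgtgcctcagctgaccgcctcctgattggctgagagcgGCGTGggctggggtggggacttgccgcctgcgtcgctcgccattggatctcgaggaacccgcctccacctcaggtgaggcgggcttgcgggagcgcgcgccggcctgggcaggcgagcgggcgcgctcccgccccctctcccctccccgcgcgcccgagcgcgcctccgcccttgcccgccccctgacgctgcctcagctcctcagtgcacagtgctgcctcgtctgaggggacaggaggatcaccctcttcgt
EPAS1: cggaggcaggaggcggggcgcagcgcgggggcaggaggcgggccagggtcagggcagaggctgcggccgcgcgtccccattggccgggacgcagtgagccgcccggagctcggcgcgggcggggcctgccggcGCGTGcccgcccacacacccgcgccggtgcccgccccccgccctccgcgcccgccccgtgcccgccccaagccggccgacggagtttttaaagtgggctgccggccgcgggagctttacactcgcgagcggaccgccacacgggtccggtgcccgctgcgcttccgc
ADM: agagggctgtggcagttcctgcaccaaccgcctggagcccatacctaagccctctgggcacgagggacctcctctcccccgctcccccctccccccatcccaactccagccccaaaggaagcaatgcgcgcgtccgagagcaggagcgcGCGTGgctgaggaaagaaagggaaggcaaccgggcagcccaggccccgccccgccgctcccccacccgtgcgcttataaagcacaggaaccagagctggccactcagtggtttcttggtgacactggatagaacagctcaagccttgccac
BNIP3: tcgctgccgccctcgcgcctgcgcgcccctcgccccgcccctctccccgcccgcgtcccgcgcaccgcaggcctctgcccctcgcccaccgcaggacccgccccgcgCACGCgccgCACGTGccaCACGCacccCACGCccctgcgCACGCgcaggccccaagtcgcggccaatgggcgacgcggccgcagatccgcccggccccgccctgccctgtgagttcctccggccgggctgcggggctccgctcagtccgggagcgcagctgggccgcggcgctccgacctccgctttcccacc
The first 3 windows each hold 1 match, GCGTG on the strand of the gene, beginning at -204 in HIF1A, -117 in EPAS1 and -101 in ADM, counted from the start site. BNIP3, which encodes a mitochondrial protein of mitophagy, has 6 matches between -143 and -104, where ACGTG on one strand overlaps ACGTG on the other. Of 35116 windows of this length in the same table, 48.4% hold ACGTG (21.4%) or GCGTG (36.5%), and 0.923% hold as many matches as BNIP3 or more. EGLN1 has an ACGTG at -13 and P4HA1 has one on the opposite strand at -86. The EGLN3 window and a second HIF1A window, at chr14:61697462-61697761, have no match, which says only that these letters are not there. In all, 7 of the 9 genes were matched to the promoter table, with 8 windows. A match is a description of the letters and not evidence of binding.

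Expression was deposited as log2 CPM, the reads of a gene scaled to the size of its library. Whole reads could be recovered from it and totalled 13222933 to 25785055 per library, highest in the control libraries. KO-2 replicate 1 was the shallowest library and stood apart from the other 5 on the second principal component (33.4 against -8.94 to -5.18, 25.1% of the variance), so the values of the members are also given without it. The epithelial markers EPCAM, CDH1, KRT8, KRT18 and KRT19 were all present and summed to 2205 to 2214 CPM in KO-1, 2170 to 2197 CPM in KO-2 and 1764 to 1802 CPM in control. The mesenchymal markers VIM, CDH2 and FN1 were present too, with FN1 alone at 1317 to 1740 CPM. Their sum was 1586 to 1855 CPM in KO-1, 1570 to 1653 CPM in KO-2 and 1416 to 1600 CPM in control. ERBB2 lay at 163 to 199 CPM, and ESR1 and PGR were not analysed here. Of 8 markers of leukocytes, endothelium and red cells, 5 were measured, with PTPRC at 15.4 to 20.2 CPM and CD14 at 0.121 to 0.893 CPM, and their sum was 38.8 to 39.5 CPM in KO-1, 34.7 to 36.2 CPM in KO-2 and 36.9 to 40.0 CPM in control. The part of these markers and of depth in the results below was not tested. In bulk RNA, fewer cells that express a gene and less RNA per cell cannot be told apart.

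In KO-1, HIF1A, EPAS1, VEGFA, ADM and NDRG1 rose and no gene of the set fell. With KO-2, HIF1A and NDRG1 rose and none fell. The threshold for a call was a limma p of 0.05 after Benjamini-Hochberg adjustment over the 13765 genes whose log2 CPM was 0 or more in 2 or more libraries, a filter that all 9 members passed. For the mean of both guides 3 of the 9 rose, HIF1A, EPAS1 and NDRG1, where 29.6% of all genes tested were called, 14.6% higher and 14.9% lower. In what follows, a value or call for or with both guides is that of this mean, which 1 guide alone can carry. For KO-1 the 5 of 9 that rose stand beside 29.7% of all genes called, 14.6% higher and 15.1% lower. For KO-2 the 2 of 9 that rose stand beside 16.9%, 8.73% higher and 8.19% lower. Between the guides none of the 9 was called in limma, beside 1.14% of all genes, 0.334% higher and 0.806% lower in KO-2. An unadjusted limma p below 0.05 was reached by 3 of the 9 (EPAS1, ADM and EGLN3), beside 2381 of the 13765 genes tested. Both KO-1 and KO-2 are set against the same 2 control libraries, so their results are not independent.

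The median log2 fold change of the 9 genes was 0.21 for the mean of both guides, 0.28 for KO-1 and 0.13 for KO-2, beside -0.01, -0.00 and -0.02 over all genes. Many genes had libraries that did not overlap between groups. All 4 knockout libraries lay above both controls for 4 of the 9 and below for 1, beside 22.3% and 24% of all genes, 46.3% in all. The KO-1 libraries lay above control for 6 and below for 2, beside 35.5% and 36.2%, 71.7% in all. The KO-2 libraries lay above control for 4 and below for 2, beside 28% and 30.9%, 59% in all. KO-2 lay above KO-1 for 1 and below for 3, beside 22.3% and 21.9%, 44.2% in all.

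Called changes were small, the largest being 1.44-fold for ADM in KO-1. Of all calls for both guides 49.4% were higher, and 61.7% were with library medians set equal. That scaling gave 60.5% in place of 49.0% for KO-1 and 64.5% in place of 51.6% for KO-2. It is a scaling that turned the direction of none of the 9 genes. The counts depend on single libraries. So do those of all genes, given in the last section, and a member count that moves with them is no result about the 9 genes. For both guides 1 of 9 was called without control replicate 1, 0 without control replicate 2, 1 without KO-1 replicate 1, 2 without KO-1 replicate 2, 6 without KO-2 replicate 1 and 5 without KO-2 replicate 2. For KO-1 the count was 1 when either control library was left out, and 2 and 0 when KO-1 replicates 1 and 2 were. For KO-2 it was 0 without either control library or either KO-1 library, and 5 without KO-2 replicate 1. Between the guides 1 and 3 were called without KO-2 replicates 1 and 2. A group left with 1 library was assumed to vary like the others. Without a KO-2 library the spread came from KO-1 and control alone, whose replicates differed less. Their chi-square per degree of freedom against counting noise was 2.98 and 3.66, and that of KO-2 was 8.27. Fits of this kind may thus call too many genes. Without a mean-variance trend HIF1A lost its call with both guides (adjusted p = 0.081), KO-1 (0.097) and KO-2 (0.17), and NDRG1 lost its calls too (0.058, 0.087 and 0.11), as did VEGFA (0.14) and ADM (0.068) in KO-1, while EGLN3 gained one in KO-1 (0.041). Fitted with only the groups compared, HIF1A (0.065) and NDRG1 (0.070) lost their calls in KO-2 and P4HA1 gained one in KO-1 (0.0080). With the knockout libraries as 1 group EPAS1 lost its call (0.088).

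**Figure D1:**
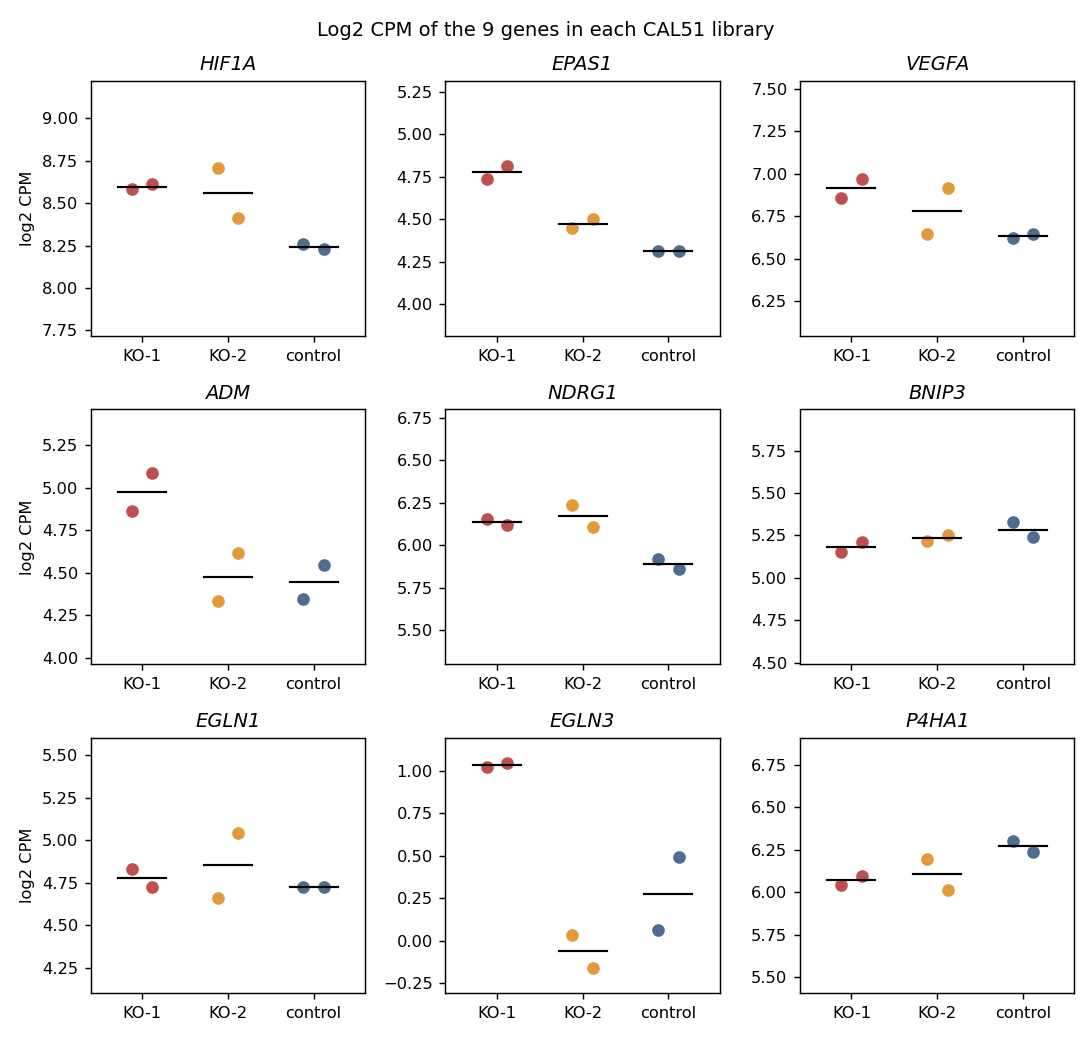
Log2 CPM (y axis) of each gene in the 2 libraries of KO-1, KO-2 and control, with a line at the group mean and replicate 1 left of replicate 2. All panels span 1.5 log2 units, so distances can be compared between genes. HIF1A, EPAS1, VEGFA and NDRG1 have all 4 knockout libraries above both control libraries, and P4HA1 has them all below.

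HIF1A, the alpha subunit found in nearly every cell type (RefSeq, GRCh38.p14, as for all genes here: chromosome 14, 61695513 to 61748258, plus strand), had a log2 CPM of 8.58 and 8.61 in KO-1, 8.71 and 8.41 in KO-2, and 8.26 and 8.23 in control. All 4 knockout libraries thus lay above both controls, and the 2 KO-2 libraries lay on either side of KO-1. It rose with both guides by a log2 fold change of 0.33 ± 0.07 (SE, limma adjusted p = 0.0048), or 25.9%. The rise was 0.35 ± 0.08 in KO-1 (adjusted p = 0.0074) and 0.31 ± 0.08 in KO-2 (adjusted p = 0.022). The guides differed by -0.04, with a 95% interval from -0.21 to 0.14. Without KO-2 replicate 1 the value was 0.26 for both guides and 0.17 in KO-2, and the difference of KO-2 from KO-1 became -0.19. Leaving out control replicate 2 ended the call with both guides (adjusted p = 0.060). That for KO-1 was lost without control replicate 2 or either KO-1 library (0.059 to 0.084), and that for KO-2 without either control or either KO-1 library (0.066 to 0.14). Exons of HIF1A overlap those of HIF1A-AS1 on the other strand, which had 0 to 13 reads per library against 5448 to 7833 for HIF1A. They also overlap exons of AL137129.1 on the same strand, which was not analysed here. How reads shared with it were counted is unknown.

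EPAS1, the alpha subunit best known from endothelium and kidney cancer (chromosome 2, 46297407 to 46386697, plus strand), stood at 4.74 and 4.82 in KO-1, 4.45 and 4.50 in KO-2, and 4.31 and 4.31 in control, in log2 CPM. Its 3 groups did not overlap, with KO-2 between KO-1 and control. It rose by 0.46 ± 0.10 in KO-1 (SE, limma adjusted p = 0.0064) and by 0.31 ± 0.09 with both guides (adjusted p = 0.022), while KO-2 stood at 0.16 ± 0.10 (adjusted p = 0.31). The log2 difference of KO-2 from KO-1 was -0.30, with a 95% interval from -0.53 to -0.07 and an adjusted p of 0.18. For both guides the call was lost without either control library (adjusted p = 0.18 and 0.17) or either KO-1 library (0.052 and 0.078). For KO-1 it was lost without either control library or KO-1 replicate 2 (0.062 to 0.070). Without KO-2 replicate 1 the value was 0.32 for both guides and 0.19 in KO-2.

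Of the secreted targets, VEGFA, the growth factor of blood vessels (chromosome 6, 43770211 to 43786487, plus strand), had a log2 CPM of 6.86 and 6.97 in KO-1, 6.65 and 6.91 in KO-2, and 6.62 and 6.64 in control. KO-2 replicate 1 was barely above control, while KO-2 replicate 2 was as high as KO-1. VEGFA rose by 0.28 ± 0.09 in KO-1 (SE, limma adjusted p = 0.031). Its value was 0.15 ± 0.09 in KO-2 (adjusted p = 0.27) and 0.21 ± 0.08 for both guides (adjusted p = 0.052). With library medians set equal (adjusted p = 0.020) or a pseudocount of 1 CPM (0.0498) VEGFA passed for both guides. Without KO-2 replicate 1 the value was 0.28 in KO-2 and for both guides, and without KO-2 replicate 2 that for both guides was 0.15. The KO-1 call was lost without any 1 of the control or KO-1 libraries (adjusted p = 0.090 to 0.23). The difference of KO-2 from KO-1 was -0.13, with a 95% interval from -0.32 to 0.06, and -0.27 without KO-2 replicate 2. VEGFA and P4HA1 each share exon sequence with an annotated transcript on the other strand, and the strand setting of the counting is unknown.

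ADM, which encodes the vasodilator peptide adrenomedullin (chromosome 11, 10305073 to 10307397, plus strand), was the target of the set with the largest called change. Its log2 CPM was 4.87 and 5.09 in KO-1, 4.34 and 4.62 in KO-2, and 4.35 and 4.55 in control. Both KO-1 libraries lay above the other 4, and KO-2 overlapped control. ADM rose by 0.53 ± 0.13 in KO-1 (SE, limma adjusted p = 0.011) and stood at 0.03 ± 0.13 in KO-2 (adjusted p = 0.90), and at 0.28 ± 0.11 for both guides (adjusted p = 0.087, or 0.044 with library medians set equal and 0.049 after quantile normalization). The difference of KO-2 from KO-1 was -0.50, with a 95% interval from -0.79 to -0.21, and did not pass over all genes (adjusted p = 0.10). Without KO-2 replicate 2 it was -0.64, and without KO-2 replicate 1 the value was 0.35 for both guides and 0.17 in KO-2. The KO-1 call was lost without control replicate 1 or KO-1 replicate 2 (0.13 each).

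NDRG1, a stress-responsive gene with a known role in restraining metastasis (chromosome 8, 133237175 to 133297252, minus strand), had a log2 CPM of 6.15 and 6.12 in KO-1, 6.23 and 6.11 in KO-2, and 5.92 and 5.86 in control. The 4 knockout libraries lay close together and above both controls. It rose by 0.25 ± 0.08 in KO-1 (SE, limma adjusted p = 0.031), by 0.28 ± 0.08 in KO-2 (adjusted p = 0.029) and by 0.26 ± 0.07 with both guides (adjusted p = 0.012). The guides differed by 0.03, with a 95% interval from -0.13 to 0.20. Leaving out either control library (adjusted p = 0.0935 and 0.156) or KO-1 replicate 1 (0.055) ended the call with both guides, and that for each guide was lost without any 1 of the control or KO-1 libraries (0.070 to 0.22). Without KO-2 replicate 1 the value was 0.23 for both guides and 0.22 in KO-2.

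BNIP3, on chromosome 10 from 131967684 to 131981923 on the minus strand, held the narrowest range of the set, at 5.15 and 5.21 in KO-1, 5.22 and 5.25 in KO-2, and 5.33 and 5.24 in control (log2 CPM). Its log2 fold change was -0.08 ± 0.08 for both guides (SE, limma adjusted p = 0.48), and the 95% interval from -0.24 to 0.09 leaves out a rise of the size that HIF1A showed. Its value was -0.10 in KO-1 (adjusted p = 0.40) and -0.05 in KO-2 (0.73), and without KO-2 replicate 1 it was -0.07 for both guides (0.46). The annotation names 39 BNIP3 pseudogenes, and how reads shared with such copies were counted is unknown, so its counts are uncertain. Its close relative BNIP3L, also a mitophagy receptor, was picked out after its values were seen. BNIP3L had a log2 CPM of 5.91 and 5.91 in KO-1, 5.38 and 5.14 in KO-2, and 5.39 and 5.30 in control. KO-1 was higher than the other 4 libraries, and the difference of KO-2 from KO-1 was -0.65 ± 0.10 (SE, adjusted p = 0.011), a call lost without either KO-1 library (0.31 each) and without a mean-variance trend (0.21). BNIP3L rose by 0.57 in KO-1 (adjusted p = 0.0015), and its KO-2 value was -0.09 (0.57).

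**Figure D2:**
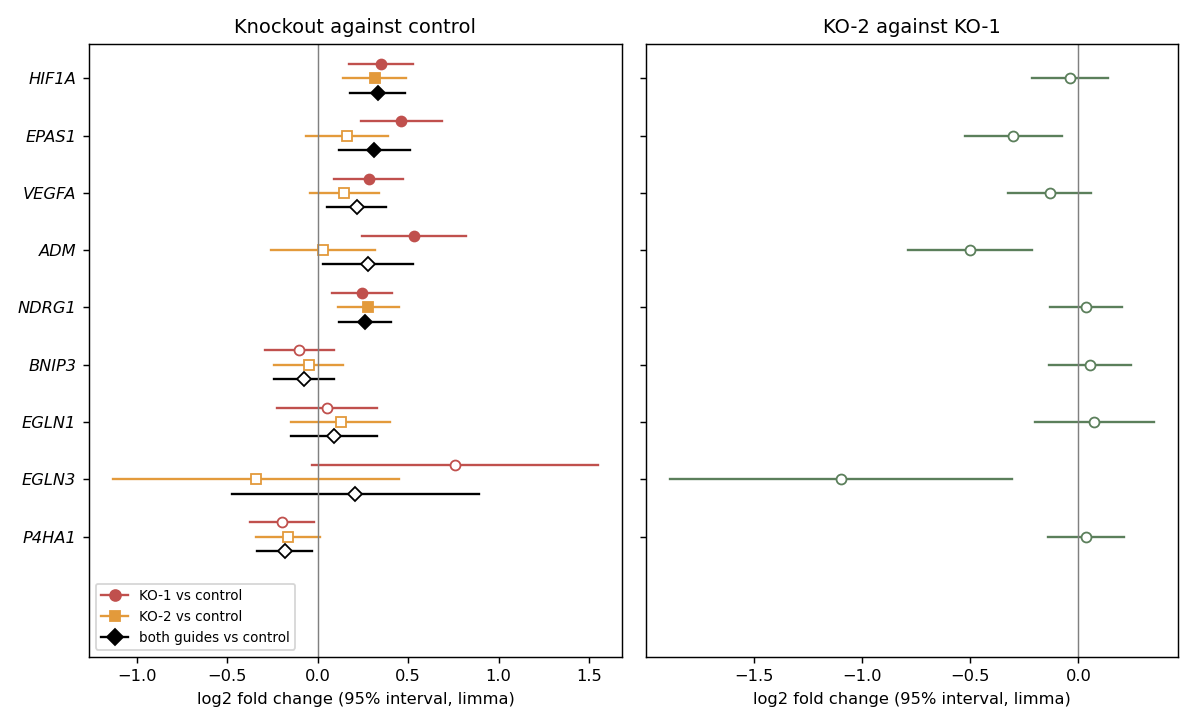
Log2 fold change of each gene with its 95% interval from limma, for KO-1, KO-2 and the mean of both guides against control on the left, and for KO-2 against KO-1 on the right. Filled symbols mark an adjusted p below 0.05. HIF1A and NDRG1 are filled in all 3 comparisons with control, and no symbol is filled on the right.

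With all 6 libraries and the mean-variance trend, the oxygen sensors of the set did not pass the test in any comparison. EGLN1, the main prolyl hydroxylase of HIF (chromosome 1, 231363756 to 231422287, minus strand), had a log2 CPM of 4.83 and 4.72 in KO-1, 4.66 and 5.04 in KO-2, and 4.73 and 4.72 in control. The KO-2 libraries lay on either side of all the others. Its log2 fold change was 0.09 ± 0.11 for both guides (SE, limma adjusted p = 0.57) and 0.05 in KO-1 (0.79). In KO-2 it was 0.13 (adjusted p = 0.53), or 0.31 without KO-2 replicate 1 and -0.06 without KO-2 replicate 2.

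EGLN3, a hydroxylase that HIF itself induces (chromosome 14, 33924227 to 33951074, minus strand), rested on 12 to 36 reads per library. Its log2 CPM was 1.02 and 1.04 in KO-1, 0.03 and -0.16 in KO-2, and 0.06 and 0.49 in control. Both KO-1 libraries lay above control and both KO-2 libraries below it. The values were 0.76 ± 0.36 in KO-1 (SE, limma adjusted p = 0.14) and -0.34 ± 0.36 in KO-2 (adjusted p = 0.55). The difference of KO-2 from KO-1 was -1.10, with a 95% interval from -1.89 to -0.31, and did not pass over all genes (adjusted p = 0.16). Without KO-2 replicate 1 it was -1.19 (adjusted p = 0.11).

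P4HA1 encodes a catalytic subunit of the prolyl hydroxylase that modifies collagen (chromosome 10, 73007217 to 73096866, minus strand). Its log2 CPM was 6.04 and 6.09 in KO-1, 6.20 and 6.01 in KO-2, and 6.30 and 6.24 in control. All 4 knockout libraries lay below both controls, as was so for 24% of all genes. The values were -0.20 ± 0.08 in KO-1 (SE, limma adjusted p = 0.085), -0.16 ± 0.08 in KO-2 (0.19) and -0.18 ± 0.07 for both guides (0.071). Without KO-2 replicate 1 they were -0.20, -0.26 and -0.23. With KO-2 replicate 2 left out, the value for both guides was -0.14 and that for KO-1 was -0.20.

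Other collagen-modifying enzymes were set beside P4HA1 after their values were seen. P4HA2, the other main catalytic subunit, had a log2 CPM of 5.48 and 5.48 in KO-1, 5.15 and 4.91 in KO-2, and 4.70 and 4.78 in control, and rose by 0.52 ± 0.09 with both guides (SE, limma adjusted p = 0.0016), with 0.74 in KO-1 (0.00046) and 0.29 in KO-2 (0.073). The lysyl hydroxylase PLOD2, with 74 to 208 reads in a library, rose by 0.57 (adjusted p = 0.029), and PLOD1 fell by 0.16 (0.041) on the log2 scale. PLOD2 stood at 0.93 in KO-1 (adjusted p = 0.0053) and 0.21 in KO-2 (0.50), and PLOD1 at -0.21 in KO-1 (0.027) and -0.12 in KO-2 (0.21). The calls of PLOD1 and PLOD2 for both guides were lost without any 1 of the control or KO-1 libraries (adjusted p = 0.12 to 0.28 for PLOD1 and 0.053 to 0.33 for PLOD2).

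In the authors' deposited table the same members passed a false discovery rate below 0.05. For KO-1 these were HIF1A (0.0051), EPAS1 (0.0048), VEGFA (0.022), ADM (0.0067) and NDRG1 (0.028), beside 29% of all genes. For KO-2 they were HIF1A (0.016) and NDRG1 (0.026), beside 16.7% of all genes. Between the guides the lowest rate among the 9 was 0.089, for ADM.

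Levels can be compared between genes only per length, here as CPM per kilobase of annotated exons (GENCODE release 29). HIF1A was the highest of the 9, at 90.8 ± 1.27 in KO-1, 89.0 ± 12.9 in KO-2 and 71.2 ± 1.04 in control (SD, n = 2 each). VEGFA, P4HA1, NDRG1, BNIP3, ADM, EPAS1 and EGLN1 followed in that order in both knockout groups, and in control P4HA1 and VEGFA shared the second place at 26.3 each. EPAS1 was at 5.29 ± 0.21 in KO-1, 4.29 ± 0.10 in KO-2 and 3.83 ± 0.01 in control. EGLN3 was the lowest, at 0.399 ± 0.004 in KO-1, 0.176 ± 0.018 in KO-2 and 0.230 ± 0.052 in control. The neighbours whose libraries overlapped were BNIP3 and ADM in KO-1, EPAS1 and EGLN1 in KO-2, and P4HA1 and VEGFA in control.

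**Figure D3:**
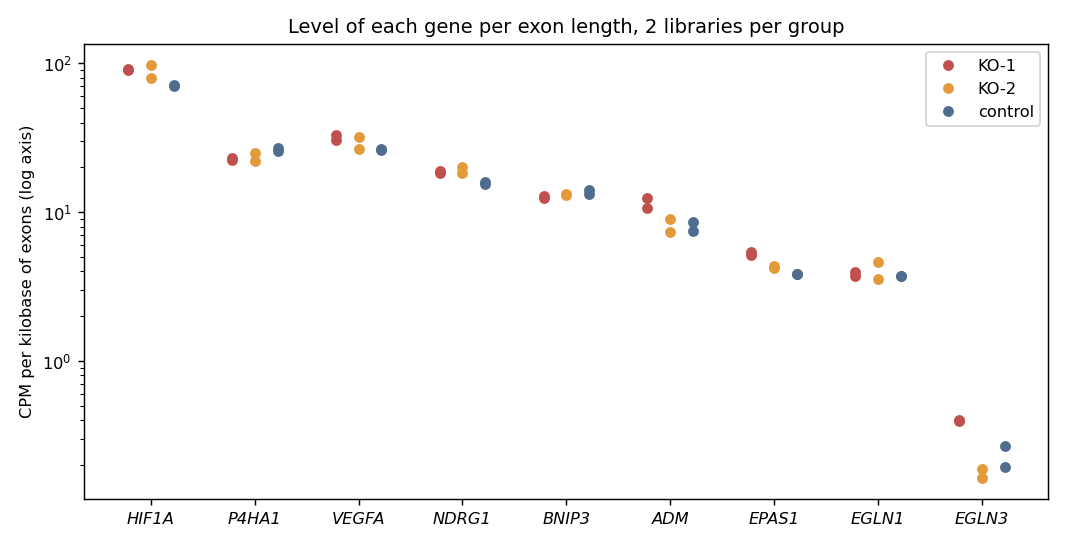
CPM per kilobase of annotated exons (log axis) in the 2 libraries of KO-1, KO-2 and control, with genes ordered by their control mean. HIF1A lies between 70.5 and 98.1 in all libraries and EGLN3 between 0.163 and 0.402, with the other 7 genes in between.

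The rest of the pathway was read from 2 lists, which share none of the 9 members. Of 20 genes of the HIF machinery 19 were tested, of which 1 rose and 3 fell for both guides, with a median log2 fold change of 0.08 beside -0.01 over all genes. Of all genes, 14.6% rose and 14.9% fell. In KO-1, 3 of the machinery genes rose and 4 fell, beside 14.6% and 15.1% of all genes. In KO-2, 1 rose and 1 fell, beside 8.73% and 8.19%. HIF1AN, the asparaginyl hydroxylase that blocks the HIF activation domain when oxygen is present, had a log2 CPM of 6.09 and 6.10 in KO-1, 6.40 and 6.41 in KO-2, and 6.57 and 6.51 in control. It fell by 0.28 ± 0.06 on the log2 scale with both guides (SE, limma adjusted p = 0.0044), with values of -0.44 in KO-1 (0.00086) and -0.13 in KO-2 (0.21). ARNT2, a partner subunit of the alpha subunits, fell by 0.32 ± 0.06 (adjusted p = 0.0045), and ARNT itself stood at -0.18 (0.15). P4HTM, a membrane-bound prolyl hydroxylase, fell by 0.55 ± 0.14 (adjusted p = 0.013). CITED2, which competes with HIF for the coactivators EP300 and CREBBP, rose by 0.26 ± 0.06 (adjusted p = 0.0073).

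None of the VHL ligase genes VHL, ELOB, ELOC, CUL2 and RBX1 was called for both guides, with values from -0.10 to 0.16, though ELOC was higher in KO-1 (0.23, limma adjusted p = 0.046). Nor was the third hydroxylase EGLN2 called for both guides (-0.12, adjusted p = 0.66). Without control replicate 1 the calls of HIF1AN (adjusted p = 0.11), ARNT2 (0.074), CITED2 (0.10) and P4HTM (0.11) were lost, and without control replicate 2 those of ARNT2 (0.079), CITED2 (0.071) and P4HTM (0.14). HIF1AN also lost its call with the knockout libraries as 1 group (0.065), and CITED2 without a mean-variance trend (0.074). The count of machinery genes called fell without either control library and rose without either KO-2 library, as did that of all genes.

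Of 52 other HIF targets 47 were tested. For the mean of both guides 17 rose and 5 fell, with a median of 0.13, beside 14.6% and 14.9% of all genes. In KO-1, 17 of the targets rose and 4 fell, beside 14.6% and 15.1% of all genes. In KO-2, 9 rose and 3 fell, beside 8.73% and 8.19%. The glucose transporter SLC2A1 had a log2 CPM of 8.23 and 8.25 in KO-1, 7.88 and 8.06 in KO-2, and 7.53 and 7.49 in control, a rise of 0.60 ± 0.06 (SE, limma adjusted p = 5.0e-05). Its KO-2 libraries lay between KO-1 and control. The histone demethylase KDM5B rose by 0.50 ± 0.05 (adjusted p = 7.7e-05) and the transcriptional repressor BHLHE40 by 0.56 ± 0.07 (adjusted p = 0.00038). The 5 that fell, named after their values were seen, were LOXL2 at -0.33, HILPDA at -0.43, PLOD1 and CA12 at -0.16 each, and ENO1 at -0.14. Of these, HILPDA, PLOD1, CA12 and ENO1 lost their calls without any 1 of the control or KO-1 libraries (adjusted p = 0.067 to 0.36), and with library medians set equal (0.053 to 0.15). The count of these targets called fell without any 1 of the control or KO-1 libraries, as did that of all genes. Several genes on this list are also known targets of other pathways, which these data do not separate from HIF.

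**Figure D4:**
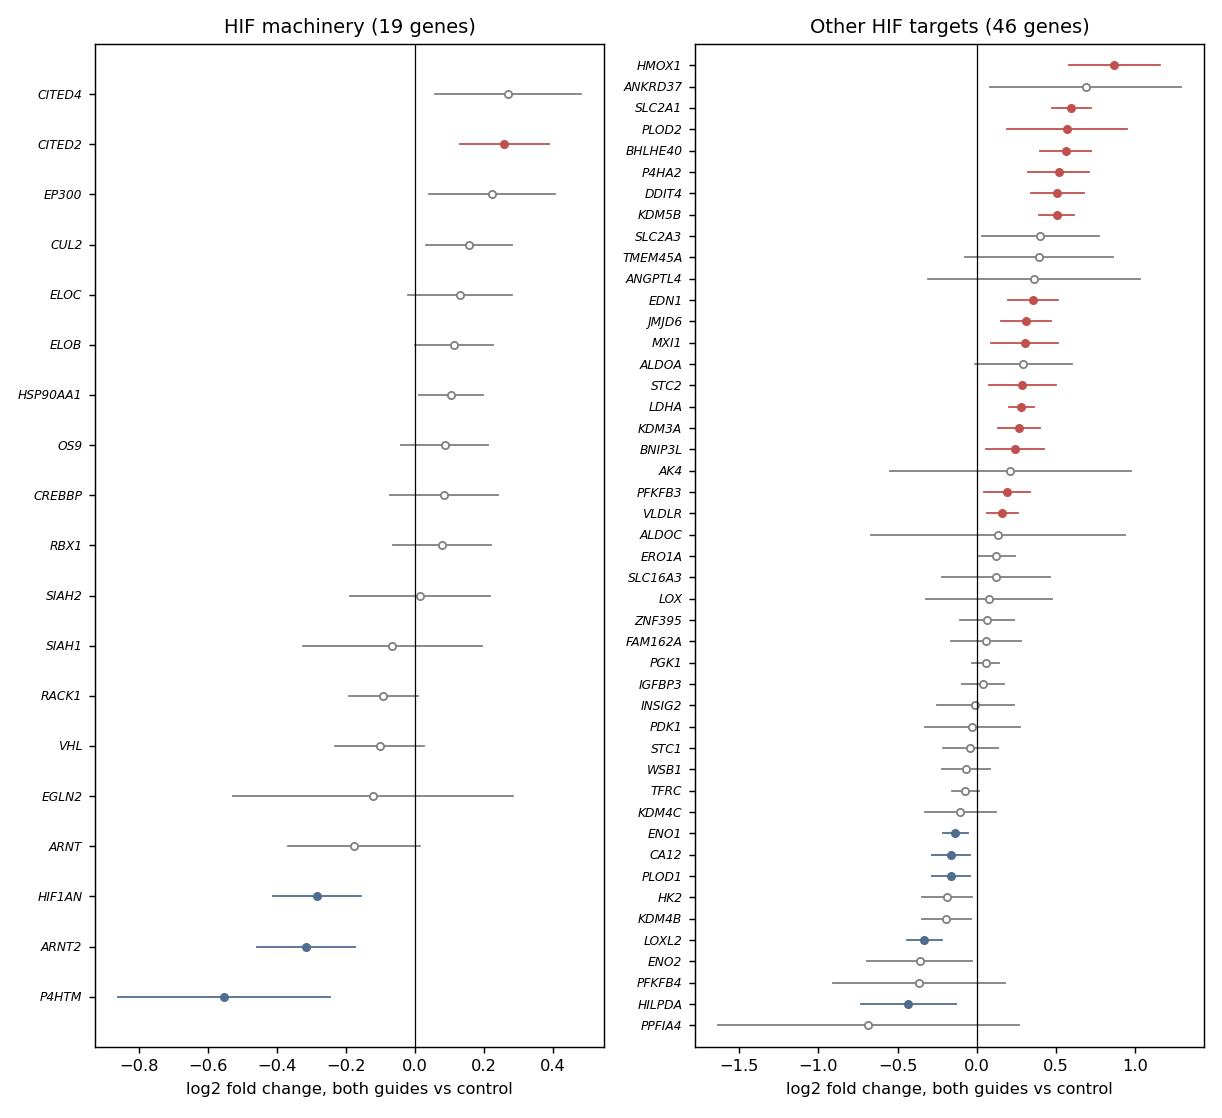
Log2 fold change for the mean of both guides against control, with its 95% interval, for the 19 machinery genes and 46 of the 47 other targets tested, red where a gene rose, blue where it fell and open where it did not pass an adjusted p of 0.05. Of the machinery genes 1 is red and 3 are blue, and of the targets drawn 16 are red and 5 are blue.

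HIF1A had the highest log2 fold change for both guides among the members called (0.33, beside 0.31 for EPAS1), though without KO-2 replicate 1 EPAS1 was higher (0.32, beside 0.26 for HIF1A). The 3 genes whose 6 values, each centred on the mean of its gene, lay nearest to those of HIF1A were MYL12A, CHMP2B and TRMT11, with a root mean square difference of 0.022, 0.024 and 0.027 log2 units over 6 libraries. MYL12A, for instance, stood at 8.21 and 8.21 in KO-1, 8.32 and 8.06 in KO-2, and 7.88 and 7.89 in control. Like HIF1A, it was highest in KO-2 replicate 1, the shallowest library, which stood apart from the others. As MYL12A was chosen by these same 6 values, that shared peak adds nothing further. No member fell with both guides, so none is given a nearest pattern on that side.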

How the data were processed

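fastp, STAR 2.7, featureCounts (Subread 2.0), edgeR and the build hg38 are listed in the submitters' processing notes. The annotation, strand setting and gene filter are not stated there. The authors deposited log2 CPM for 14788 genes in 6 libraries. A second deposited table gives the authors' log2 fold changes, p-values and false discovery rates, in which a rate equals a p-value adjusted over the table. The values share a minimum of -3.29. Subtracting the prior of 0.102 CPM this stands for gave whole reads for 100% of values, at a tolerance of 0.01 reads, and 1 read was worth 0.0383 to 0.0767 CPM. The limit that a count of 0 allows, 3 reads, was thus 0.115 to 0.230 CPM, and covers counting error only.

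Here, genes with log2 CPM of at least 0 in at least 2 libraries were tested (13765 kept, 1023 removed), as deposited, without another pseudocount. The prior is part of every log2 CPM value, so fold changes of genes with low counts are understated. One mean per group was fitted with limma 3.58.1 in R 4.3.3, with a mean-variance trend, 3 residual and 8.02 prior degrees of freedom, and was tested on simulated data. Errors are the SD of 2 libraries or limma's SE. Replicates differed by more than counting noise (chi-square per degree of freedom 2.98 to 8.27) and were kept apart. Members, lists and tests were chosen with earlier results of these data known. Named list genes are those with the 4 smallest p for both guides, of which 1 target, kept in the counts, is not reported here, and others are marked as chosen after their values were seen. Alternatives covered filters, scaling, pseudocount, variance model, a replicate block, thinned reads and each library left out.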

Additional observations from a re-analysis of the deposited data

Results flagged for a closer look

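BNIP3L differed between the guides in limma, at a log2 difference of -0.65 for KO-2 against KO-1 (adjusted p = 0.011). It was the only one of the 47 other HIF targets tested for which that difference was called, beside 157 of all 13765 genes (1.14%). Its 2 KO-1 libraries lay at 5.91 and 5.91 log2 CPM, and both the KO-2 libraries (5.38 and 5.14) and the control libraries (5.39 and 5.30) lay below them. The call was lost without KO-1 replicate 1 or 2 (adjusted p = 0.31 each), and without a mean-variance trend (0.21).

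EGLN3 had both KO-1 libraries above control and both KO-2 libraries below it, a pattern that 342 of 13765 genes (2.48%) shared in one direction or the other. The difference of KO-2 from KO-1 was -1.10, on 12 to 36 reads per library, and it did not pass the test over all genes (limma adjusted p = 0.16).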

How the results depend on the processing

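For the 9 members and the named list genes, 844 recomputed log2 fold changes were compared with the reported ones. Of these 712 kept direction and side of the threshold, 98 lost a call, 24 gained one and 10 changed sign. All sign changes came from leaving out 1 library and concerned values that had not passed the test. Most alternatives kept the reported sign. Over all of them, values in KO-2 against KO-1 ranged from -0.19 to 0.11 for HIF1A and -0.0304 to 0.10 for NDRG1. The same range was -0.0562 to 0.13 for P4HA1 and -0.11 to 0.26 for EGLN1. Values over all alternatives ranged from -0.11 to 0.17 for ADM in KO-2. For EGLN1 they ranged from -0.0053 to 0.18 with both guides, -0.000823 to 0.10 in KO-1 and -0.0627 to 0.31 in KO-2. For EGLN3 with both guides the range was -0.00467 to 0.42. The cause of the sign changes was not tested.

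With 1 library left out, members called ranged from 0 to 6 for both guides and for KO-1, 0 to 5 for KO-2 and 0 to 3 between the guides. Machinery genes ranged from 0 to 11 and other targets from 9 to 29. All genes called ranged from 1286 to 6075 for both guides, 1694 to 6255 for KO-1, 362 to 4565 for KO-2 and 0 to 3170 between the guides, where the 0 came without either KO-1 library. Without a mean-variance trend all genes called were 2201 for both guides in place of 4068, 2345 for KO-1 in place of 4089, 162 for KO-2 in place of 2329 and 1 between the guides in place of 157. Members called were then 1, 2 and 0, and other targets 14. Fitting only the groups compared called 6259 genes for KO-1, 1371 for KO-2 and 48 between the guides, and 0 members for KO-2. With the knockout libraries as 1 group 13 other targets were called in place of 22, beside 2925 of all genes in place of 4068. Setting library medians equal called 5 members and 9 machinery genes for both guides, beside 4173 of all 13765 genes tested. Of all genes, 2575 were then higher and 1598 lower, in place of 2011 and 2057.

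Replicate numbers did not pair the libraries, since deviations of same-numbered libraries correlated at -0.05 to 0.04. With a replicate block 5 members were called for both guides in place of 3, VEGFA (adjusted p = 0.036) and ADM (0.045) in addition, and 3782 of all genes. Weights from voom on the recovered reads, added after seeing the data, called 5 members (VEGFA and P4HA1 in addition) and 8 machinery genes for both guides. Of all genes they called 4608, in place of 4068. Alternatives for the named list genes were also chosen after seeing the data. The 12 to 36 reads of EGLN3 limit what can be said of it.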
